A study of Mus musculus with 6 samples.

Results

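DNA replication genes were followed in activated mouse CD8+ T cells cultured with or without butyrate, a short-chain fatty acid made by gut bacteria that inhibits histone deacetylases. The 48 genes, of 27179 gene numbers in the deposited count table, were taken by name and cover origin licensing, the replicative helicase, the DNA polymerases, the sliding clamp, the nucleotide supply, fork protection and chromatin assembly. All 48 were found in the table and all 48 passed the filter on low counts. The butyrate group comprised 3 libraries of gBT-I CD8+ T cells that had received butyrate from day 3. The control group comprised 3 libraries of such cells without it. Both groups came from spleen cells of the gBT-I strain, whose transgenic T cell receptor recognises a peptide of glycoprotein B from herpes simplex virus. The cells of both groups were activated in culture with this peptide and lipopolysaccharide, received IL-2 from day 2 to day 5 and were harvested on day 6. No butyrate dose, number of mice or sorting step was found in the labels, which also do not tie a library to a separate mouse or culture.

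Replication starts when the origin recognition complex, Cdc6 and Cdt1 load the Mcm2 to Mcm7 ring onto DNA in G1. In S phase, Cdc45 and the GINS complex turn this ring into the active helicase. DNA polymerases alpha, delta and epsilon, the clamp Pcna and its loader copy the strands. Much of this gene set is transcribed late in G1 under E2F factors, and activated T cells, which divide fast, express it strongly.

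The libraries held 5383380 to 6244350 counts, and the first principal component of log2 CPM parted the groups with 80.1% of the variance. The 7 T cell markers, of which 1 was called lower, summed to 3472 to 4503 CPM with butyrate and 3678 to 4218 CPM in control (CPM is the count relative to the library total, scaled by TMM factors). Markers of other cells were low but some were higher with butyrate. Of 9 macrophage and dendritic cell markers, 5 were tested and 2 were called higher. These were Itgam (mean 44.1 CPM with butyrate, 4.08 in control) and H2-Ab1 (38.3 and 8.95 CPM). Itgax, Lyz2 and Cd68 were not called (log2 fold changes 0.06, 0.13 and 0.68), though Cd68 was higher in every butyrate library than in any control library. Summed CPM of the 9 was 127 to 130 with butyrate and 30.8 to 85.0 in control. Corresponding sums were 13.5 to 22.0 and 14.5 to 20.1 for 6 B cell markers (1 called higher), 8.88 to 12.4 and 2.34 to 5.19 for 4 NK cell markers (1 higher), and 5.33 to 9.98 and 0.162 to 1.26 for 5 erythroid markers (1 higher). The 5 granulocyte markers summed to at most 1.66 CPM, and the B cell factor gene Pax5 had 0 counts in all 6 libraries. Adgre1, Fcgr1, Ncr1, Klra4, Klra8, Alas2 and Foxp3 were under 1 CPM in every library. The CD4 markers Cd4 and Zbtb7b were called higher and the 3 CD4 markers summed to 115 to 126 CPM with butyrate and 65.5 to 78.5 CPM in control. Most of this sum was Zbtb7b (mean 117 CPM with butyrate, 69.8 in control), while Cd4 averaged 4.63 and 0.608 CPM. The part of other cells in the values of replication genes was not tested. In bulk libraries, fewer cells in S phase and less RNA per cell cannot be told apart.

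Replication genes split in both directions with butyrate, and all changes were under 2-fold. Clspn, Brip1, Tyms and Tk1 fell most clearly, while Mcm6, Gins2, Rpa1 and Cdc6 rose. Of the 48 genes, 11 were called lower and 6 higher by edgeR's adjusted p under 0.05, and 31 were not called, while 45.9% of all genes tested were called in either direction. Over all 11740 genes tested, 22.5% were called lower and 23.5% higher, so the 22.9% of replication genes called lower was near the background, and the 12.5% called higher was below it. Among them 4 were called lower with a log2 fold change of at most -0.5, against 13.2% of all genes tested, and 0 were called lower by at least 2-fold, against 3.33%. The median log2 fold change of the 48 was -0.04, against 0 over all genes tested. The folds ran from -0.71 for Clspn to 0.56 for Mcm6 on the log2 scale. None of the 48 reached 2-fold in either direction, against 14.4% of all genes tested, and the median size of the log2 fold change was 0.22, against 0.33 over all genes. The 48 were also more abundant, with a median of the mean CPM of 94.1, against 38.3 over all genes tested. The part of abundance in these fold sizes was not tested. All butyrate libraries lay below all control libraries for 11 of the 48 genes and above them for 8. Among all genes tested these shares were 28.2% and 28.9%.

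**Figure D1:**
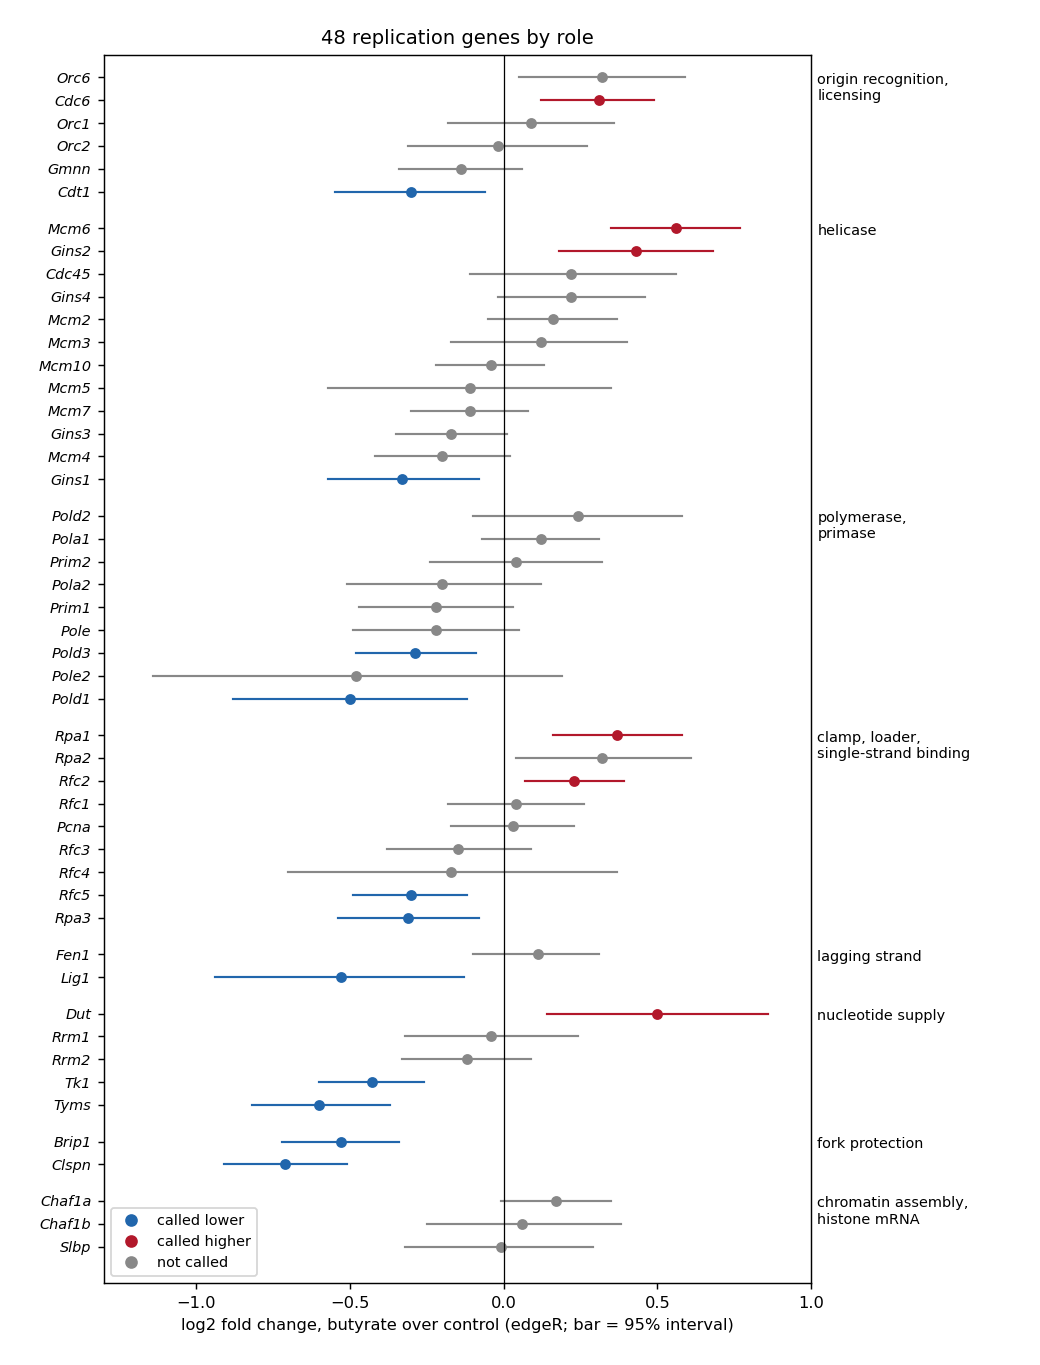
Log2 fold change of each replication gene, butyrate over control (x axis), with its 95% interval, grouped by role down the page. Blue marks the 11 genes called lower, red the 6 called higher and grey the 31 not called, and every role other than fork protection holds genes that were not called.

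The count of 11 lower genes depended on single libraries and on scaling. It was 7 without butyrate replicate 2, 5 without butyrate replicate 3, 7 without control replicate 1, 7 without control replicate 2 and 6 without control replicate 3. With upper quartile scaling 4 were lower and 10 higher, while all genes then split into 2067 lower and 3338 higher, against 2637 and 2756. Upper quartile scaling ended the calls of Cdt1, Gins1, Pold1, Pold3, Rfc5, Rpa3 and Lig1 (edgeR adjusted p 0.0501 to 0.121). DESeq2 ended those of Cdt1, Gins1, Rfc2 and Rpa3 (DESeq2 adjusted p 0.0579 to 0.123). Cdt1 was also lost with total-count scaling (edgeR adjusted p = 0.0549) and with a filter of 5 CPM in 3 libraries (edgeR adjusted p = 0.0642), and Rfc2 with no filter (edgeR adjusted p = 0.104). Clspn, Brip1, Tyms and Tk1 were called lower and Mcm6, Gins2, Rpa1 and Cdc6 higher in all 15 alternative fits. For 23 of the 31 genes not called, the 95% interval of the log2 fold change lay wholly between -0.5 and 0.5. Over all genes not called this held for 55.1%, without matching for abundance. The widest interval among the 31, from -1.14 to 0.19, belonged to Pole2, the least abundant of the 48 genes.

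**Figure D2:**
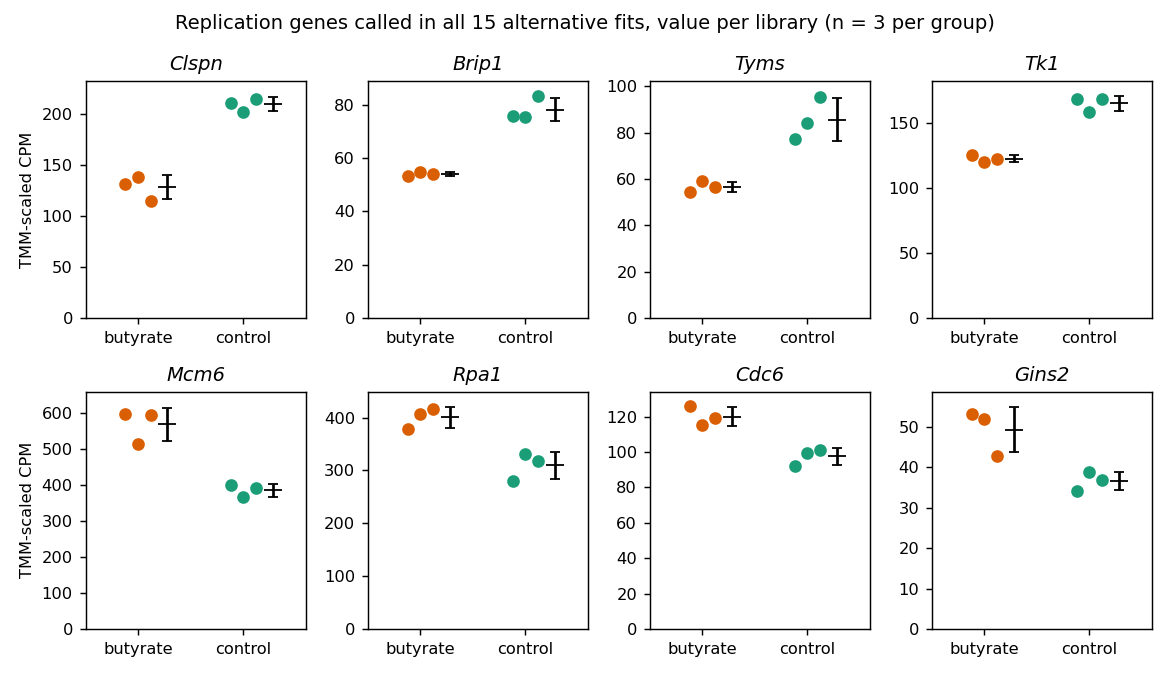
CPM (y axis, from 0) in each butyrate and control library (x axis) for the 8 replication genes called in all 15 alternative fits, with the mean and SD (n = 3) beside the points. The butyrate points of Clspn, Brip1, Tyms and Tk1 lie below all control points, and those of Mcm6, Rpa1, Cdc6 and Gins2 above them.

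Promoter sequence is shown for some genes that rose, fell or stayed uncalled, because E2F factors drive much of this gene set. RefSeq windows (GRCm38.p6) were found for 40 of the 48 genes, and the 250 bases before each start were searched on both strands for the E2F letters TTTCCCGC, TTTGGCGC, TTTCGCGC and TTTGCCGC. A match was present for 8 of 40 replication genes, against 4.23% of the genes tested that had a window and 2.16% of all genes with one. It was present for 2 of 4 genes called higher (Mcm6 and Cdc6), 0 of 10 called lower and 6 of 26 not called. Only exact matches were counted, so a gene without one may still hold a close variant of these letters. None of the 11 matches in replication gene windows overlapped a GC box (GGGCGG). The stretches below are a selection, and those shown of genes that rose or stayed uncalled all hold a match. Rpa1, also called higher, and Brip1, called lower, had no match and are not shown. In the stretches below, written 5′ to 3′ on the gene's strand and free of exons annotated in GENCODE M21, capitals mark the E2F letters. The Cdc6 and Pola1 stretches, and 20 bases of the Tyms one, lie within the RefSeq span of their gene, which starts further upstream.
Mcm6, called higher, chr1:128359706-128359955, minus strand: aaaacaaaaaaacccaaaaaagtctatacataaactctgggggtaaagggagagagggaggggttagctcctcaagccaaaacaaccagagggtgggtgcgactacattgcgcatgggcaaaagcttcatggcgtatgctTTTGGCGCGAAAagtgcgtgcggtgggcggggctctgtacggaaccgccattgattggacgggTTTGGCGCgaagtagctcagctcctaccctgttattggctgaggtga
Cdc6, called higher, chr11:98907982-98908150, plus strand: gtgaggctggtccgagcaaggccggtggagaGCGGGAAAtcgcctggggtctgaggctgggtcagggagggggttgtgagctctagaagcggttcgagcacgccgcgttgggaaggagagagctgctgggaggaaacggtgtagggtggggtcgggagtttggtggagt
Mcm5, not called, chr8:75109341-75109382, plus strand: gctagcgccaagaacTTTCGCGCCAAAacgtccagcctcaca
Pola1, not called, chrX:93632271-93632308, minus strand: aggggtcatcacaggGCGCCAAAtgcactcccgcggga
Clspn, called lower, chr4:126556730-126556934, plus strand: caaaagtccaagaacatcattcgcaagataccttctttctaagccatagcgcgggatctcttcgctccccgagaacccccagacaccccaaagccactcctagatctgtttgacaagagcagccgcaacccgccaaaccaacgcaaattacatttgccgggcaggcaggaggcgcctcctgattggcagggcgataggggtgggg
Tyms, called lower, chr5:30073626-30073875, minus strand: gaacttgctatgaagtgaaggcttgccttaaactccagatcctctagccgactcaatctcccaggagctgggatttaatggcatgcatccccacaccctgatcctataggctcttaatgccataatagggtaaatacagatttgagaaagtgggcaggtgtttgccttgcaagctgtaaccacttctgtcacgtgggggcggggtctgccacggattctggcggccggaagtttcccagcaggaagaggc

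The Mcm6 window held 3 E2F matches, 2 of them overlapping, and the Cdc6 window held 1. The Clspn and Tyms stretches held none of these exact letters, and variants of them were not searched for. The CCAAT box (CCAAT) was present for 26 of 40 replication genes (65.0%), against 3742 of 9123 tested genes with a window. By call it was present for 3 of 10 genes called lower, 2 of 4 called higher and 21 of 26 not called. Its share was higher, at 79.4%, among the mitosis genes described further on. The CHR element (TTTGAA), known from promoters of genes expressed in G2 and mitosis, was present for 12.5% of replication genes, 35.3% of mitosis genes and 12.7% of tested genes with a window. GC boxes were present for 67.5% of replication genes and 64.8% of tested genes. These letter matches are descriptions and were not tested.

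Of 6 origin recognition and licensing genes, 1 was called higher and 1 lower (16.7% each, under the 23.5% and 22.5% of all genes tested). Cdc6, the ATPase that recruits the helicase loader Cdt1 to origins (chromosome 11, 98907709 to 98923942, gene 23834), had 126, 115 and 119 CPM with butyrate, against 92.2, 99.2 and 101 CPM in control. All 3 butyrate libraries were above all 3 control libraries, and Cdc6 rose by a log2 fold change of 0.31 (edgeR adjusted p = 0.0132, SE 0.0799). Cdt1, which loads the Mcm ring (chromosome 8, 122568015 to 122573130, gene 67177), stood at 129, 116 and 102 CPM with butyrate, against 132, 159 and 138 CPM in control. The groups did not overlap, though the highest butyrate library lay close to the lowest control library, and Cdt1 fell by 0.30 on the log2 scale (SE 0.109, adjusted p = 0.0475 by edgeR). Its call was lost without butyrate replicate 2 or 3 or control replicate 2 or 3 (log2 fold change -0.32 to -0.22, adjusted p 0.0726 to 0.159 by edgeR). Gmnn, which encodes the Cdt1 inhibitor geminin, was at 65.1, 62.8 and 58.2 CPM with butyrate, against 64.8, 68.3 and 72.2 CPM in control. Its groups overlapped by a single pair of libraries and it was not called (log2 fold change -0.14, edgeR adjusted p = 0.211).

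Orc6, a subunit of the origin recognition complex, had 88.2, 97.1 and 118 CPM with butyrate, against 73.6, 87.2 and 81.8 CPM in control. The groups did not overlap, but the adjusted p of 0.0541 (edgeR, log2 fold change 0.32, SE 0.119) missed the threshold. It was called higher in 6 of the 15 alternative fits, among them the fit with the replicate number as a block (adjusted p = 0.0164 by edgeR). Orc6 stood at a log2 fold change of 0.20 without butyrate replicate 3 (adjusted p = 0.168 by edgeR), and over its 15 alternatives the adjusted p ran from 0.0164 to 0.168. The other 2 origin recognition genes, Orc1 and Orc2, were not called. Orc1 averaged 27.1 ± 2.69 CPM with butyrate and 25.4 ± 1.94 CPM in control, and Orc2 averaged 60.8 ± 5.42 and 61.5 ± 9.79 CPM (SD, n = 3 each).

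Of the 12 helicase genes, 2 rose (16.7%), 1 fell (8.33%) and 9 were not called, both shares under those of all genes tested. Mcm6, a subunit of the Mcm2 to Mcm7 ring (chromosome 1, 128331575 to 128359705, gene 17219), had 596, 514 and 594 CPM with butyrate, against 400, 365 and 390 CPM in control. Each butyrate library was well above each control library, and the log2 fold change was 0.56 (edgeR adjusted p = 0.00129, SE 0.0911). It was the largest rise among the 48 genes. The other 5 ring subunits were not called, and their groups overlapped. Mcm3, the most abundant of them, had 399, 368 and 323 CPM with butyrate, against 314, 395 and 297 CPM in control. Control replicate 2 was above 2 of the 3 butyrate libraries, and the log2 fold change of Mcm3 was 0.12 (95% interval -0.17 to 0.40, edgeR adjusted p = 0.478). Mcm2 (log2 fold change 0.16), Mcm5 (-0.11), Mcm7 (-0.11) and Mcm4 (-0.20) lay on both sides of 0.

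Levels of the 6 ring subunits can be set beside each other per kilobase of exon, on the scale of mean CPM per kilobase. With butyrate Mcm6 stood highest at 130, above Mcm3 (120), Mcm2 (95.5), Mcm5 (87.9), Mcm4 (86.4) and Mcm7 (67.5). In control the order was Mcm3 (111), Mcm4 (98.9), Mcm5 (94.9), Mcm6 (88.0), Mcm2 (85.7) and Mcm7 (72.9). The share of Mcm6 in the summed per-kilobase level of the ring was 22.2%, 19.7% and 24.6% in the butyrate libraries, against 17.5%, 14.1% and 16.5% in the control libraries. Every butyrate share was above every control share. The whole ring summed to 2162, 2084 and 1955 CPM with butyrate, against 1817, 2032 and 1877 CPM in control, and these ranges overlapped.

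The GINS complex, 4 subunits that join the Mcm ring and Cdc45 in the active helicase, moved in both directions. Gins2 (chromosome 8, 120581266 to 120589075, gene 272551) had 53.1, 51.9 and 42.9 CPM with butyrate, against 34.2, 38.8 and 36.8 CPM in control. All butyrate libraries were above all control libraries, and Gins2 rose by a log2 fold change of 0.43 (edgeR adjusted p = 0.0126, SE 0.111). Gins1 stood at 27.0, 25.3 and 27.7 CPM with butyrate, against 30.8, 36.7 and 32.8 CPM in control, again with no overlap, and fell by 0.33 on the log2 scale (edgeR adjusted p = 0.0364, SE 0.109). The Gins1 call was lost without any of the 3 butyrate replicates or without control replicate 2 or 3 (log2 fold change -0.36 to -0.25, edgeR adjusted p 0.0547 to 0.134). Gins3 averaged 80.0 ± 3.77 CPM with butyrate and 90.2 ± 3.22 CPM in control, and Gins4 averaged 65.6 ± 2.95 and 56.3 ± 6.97 CPM (SD, n = 3 each). Neither passed the test (edgeR adjusted p = 0.107 and 0.120). Cdc45, the third partner of the helicase, and Mcm10, which helps to activate it, were not called either (log2 fold changes 0.22 and -0.04).

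Among 9 polymerase and primase genes, 2 fell (22.2%, near the 22.5% of all genes tested), 0 rose and 7 were not called. Both that fell encode subunits of DNA polymerase delta, the main lagging-strand polymerase. Pold1, its catalytic subunit (chromosome 7, 44532744 to 44548815, gene 18971), had 67.5, 72.4 and 50.1 CPM with butyrate, against 99.5, 98.1 and 70.9 CPM in control. The groups overlapped because control replicate 3 lay just below butyrate replicate 2, and Pold1 fell by 0.50 on the log2 scale (edgeR adjusted p = 0.0374, SE 0.167). Pold3, an accessory subunit (chromosome 7, 100082110 to 100121502, gene 67967), had 129, 112 and 110 CPM with butyrate, against 145, 144 and 140 CPM in control. Its groups did not overlap, and Pold3 fell by 0.29 (edgeR adjusted p = 0.0229, SE 0.0860). Leaving out butyrate replicate 1 or 3 or control replicate 1 or 2 ended the call of Pold1 (log2 fold change -0.54 to -0.35, edgeR adjusted p 0.0524 to 0.118). Leaving out butyrate replicate 2 or 3 or control replicate 1 or 2 ended that of Pold3 (-0.28 to -0.25, edgeR adjusted p 0.0615 to 0.0741).

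Pole, the catalytic subunit of the leading-strand polymerase epsilon, had 105, 92.7 and 80.9 CPM with butyrate, against 106, 121 and 97.8 CPM in control. Its groups overlapped and it was not called (log2 fold change -0.22, edgeR adjusted p = 0.156). Pole2, its accessory subunit, had 7.95, 11.3 and 8.13 CPM with butyrate, against 18.7, 8.72 and 10.9 CPM in control, so control replicate 1 alone stood apart. Pola1 and Pola2 of polymerase alpha and the primase genes Prim1 and Prim2, which make the primers that start each strand, had log2 fold changes of 0.12, -0.20, -0.22 and 0.04. Pold2, a further polymerase delta subunit, was at 0.24 and not called.

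Genes of the clamp, its loader and the single-strand binding complex had 2 higher, 2 lower and 5 not called of 9 (22.2% in each direction), which is near the 23.5% higher and 22.5% lower of all genes tested. Pcna, the sliding clamp that holds polymerases on DNA, was close to level at 361, 344 and 310 CPM with butyrate, against 317, 347 and 330 CPM in control. The control libraries lay inside the range of the butyrate libraries, and the log2 fold change was 0.03 (95% interval -0.17 to 0.23, edgeR adjusted p = 0.798). Replication protein A coats single-stranded DNA as a complex of 3 subunits, and their genes differed. Rpa1, the large subunit (chromosome 11, 75300259 to 75348454, gene 68275), had 378, 406 and 417 CPM with butyrate, against 280, 331 and 317 CPM in control. The groups did not overlap, and Rpa1 rose by a log2 fold change of 0.37 (edgeR adjusted p = 0.00990, SE 0.0914). Rpa3, the small subunit, had 32.5, 29.2 and 28.1 CPM with butyrate, against 35.5, 38.6 and 37.1 CPM in control. These groups did not overlap either, and Rpa3 fell by 0.31 on the log2 scale (edgeR adjusted p = 0.0349, SE 0.102). Its call was lost without butyrate replicate 2 or 3 or any of the 3 control replicates (log2 fold change -0.33 to -0.26, edgeR adjusted p 0.0526 to 0.104). Rpa2, the middle subunit, averaged 144 ± 23.5 CPM with butyrate and 115 ± 10.4 CPM in control (SD, n = 3 each) and was not called (edgeR adjusted p = 0.0615).

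The clamp loader, replication factor C, has 5 subunits, of which 1 rose and 1 fell. Of all genes tested, 23.5% were called higher and 22.5% lower. Rfc2 was at 124, 124 and 125 CPM with butyrate, against 104, 106 and 108 CPM in control, a small difference with very little spread in either group (log2 fold change 0.23, edgeR adjusted p = 0.0278, SE 0.0712). Rfc5 was at 89.1, 87.0 and 85.2 CPM with butyrate, against 101, 106 and 115 CPM in control, and fell by 0.30 on the log2 scale (edgeR adjusted p = 0.0151, SE 0.0815). Neither gene's groups overlapped. The Rfc2 call was lost without butyrate replicate 2 or 3 or any control replicate (log2 fold change 0.22 to 0.25, edgeR adjusted p 0.0592 to 0.0748), and that of Rfc5 without control replicate 3 (-0.24, edgeR adjusted p = 0.0649). Rfc1, Rfc3 and Rfc4 had log2 fold changes of 0.04, -0.15 and -0.17 and were not called.

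Fen1 and Lig1 finish the lagging strand, as flap endonuclease and DNA ligase. Lig1 (chromosome 7, 13277175 to 13311426, gene 16881) had 60.7, 79.8 and 50.6 CPM with butyrate, against 87.3, 78.8 and 111 CPM in control. Butyrate replicate 2 lay just above control replicate 2, and Lig1 fell by 0.53 on the log2 scale (edgeR adjusted p = 0.0354, SE 0.178). Its call was lost without butyrate replicate 1 or 3 or control replicate 1 or 3 (log2 fold change -0.56 to -0.38, edgeR adjusted p 0.0577 to 0.126). Fen1 was at 375, 336 and 344 CPM with butyrate, against 297, 340 and 342 CPM in control, with overlapping groups and no call (log2 fold change 0.11, 95% interval -0.10 to 0.31).

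Of 5 nucleotide supply genes, 2 were called lower (Tyms and Tk1, of both routes to thymidylate), 1 higher (Dut) and 2 not called. These shares of 40% lower and 20% higher stood beside 22.5% and 23.5% of all genes tested. Tyms, thymidylate synthase, which makes dTMP from dUMP (chromosome 5, 30038546 to 30073645, gene 22171), had 54.4, 59.0 and 56.5 CPM with butyrate, against 77.2, 84.4 and 95.4 CPM in control. All butyrate libraries lay far below all control libraries, and Tyms fell by 0.60 on the log2 scale (edgeR adjusted p = 0.00138, SE 0.0987). The table also holds the pseudogene Tyms-ps, at 11.5, 14.1 and 15.5 CPM with butyrate and 20.5, 25.6 and 18.5 CPM in control, and the split of reads between this pair is uncertain. Tk1, the cytosolic thymidine kinase of the salvage route (chromosome 11, 117815519 to 117826087, gene 21877), had 126, 120 and 123 CPM with butyrate, against 169, 159 and 169 CPM in control. The spread within each group was small beside the gap, and Tk1 fell by 0.43 (edgeR adjusted p = 0.00164, SE 0.0739).

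Dut, the dUTPase that makes dUMP and keeps uracil out of DNA (chromosome 2, 125247248 to 125259049, gene 110074), had 326, 276 and 202 CPM with butyrate, against 171, 200 and 197 CPM in control. The butyrate libraries spread widely, and the lowest of them was just above the highest control library (log2 fold change 0.50, edgeR adjusted p = 0.0296, SE 0.159). Its call was lost without butyrate replicate 1 or 2 or any of the 3 control replicates (log2 fold change 0.34 to 0.54, edgeR adjusted p 0.0504 to 0.0832). Rrm2, the regulated subunit of ribonucleotide reductase, which makes deoxyribonucleotides, had 562, 548 and 484 CPM with butyrate, against 547, 571 and 618 CPM in control. It was not called (log2 fold change -0.12, 95% interval -0.33 to 0.09), nor was Rrm1, the large subunit (-0.04, -0.32 to 0.24).

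Both fork protection genes fell, with the 2 smallest p-values among the 48 genes, while 22.5% of all genes tested were called lower. Clspn, which encodes claspin, the adaptor that carries the replication stress signal from Atr to Chek1 (chromosome 4, 126556957 to 126594533, gene 269582), had 131, 138 and 115 CPM with butyrate, against 211, 202 and 215 CPM in control. No butyrate library came near the lowest control library, and Clspn fell by 0.71 on the log2 scale (edgeR adjusted p = 0.000347, SE 0.0880). Brip1, a DNA helicase that works with Brca1 at stalled forks (chromosome 11, 86058136 to 86201215, gene 237911), had 53.4, 54.8 and 54.0 CPM with butyrate, against 75.8, 75.3 and 83.1 CPM in control. The butyrate libraries lay within a narrow band below all control libraries, and Brip1 fell by 0.53 (edgeR adjusted p = 0.000975, SE 0.0819).

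Chromatin assembly and histone mRNA genes were not called. Slbp, which binds the stem loop of histone mRNAs and limits histone supply to S phase, had 209, 213 and 153 CPM with butyrate, against 182, 213 and 186 CPM in control. Butyrate replicate 3 was the low one, and the log2 fold change was -0.01 (95% interval -0.32 to 0.29, edgeR adjusted p = 0.939). Chaf1a and Chaf1b, the large and middle subunits of chromatin assembly factor 1, which places new histones behind the fork, were at 0.17 and 0.06 on the log2 fold change scale.

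Across the 48 genes, butyrate replicate 3 was the lowest butyrate library for 27 and control replicate 1 the lowest control library for 28. Such counts were not made over all genes, so a trait of these genes and one of the libraries cannot be told apart. Summed CPM of the 48 genes was 7671, 7433 and 6844 with butyrate, against 6910, 7460 and 7336 in control, so the group ranges overlapped. The spans of 20 of the 48 genes overlap another RefSeq gene, among them 8 of the 17 called genes (Gins1, Gins2, Pold1, Rpa1, Lig1, Tk1, Clspn and Brip1). The labels give no strand setting for the counting, so reads of the overlapping genes cannot be told apart from theirs.

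Other genes of replication, a list of 78 that holds none of the 48, had 24 genes called lower, 9 higher and 45 not called. Its median log2 fold change was -0.10, against 0 over all genes, and 30.8% were called lower, against 22.5% of all genes. The 11.5% called higher stood under the 23.5% of all genes. With upper quartile scaling 18 were lower and 12 higher, and the count of higher genes was 5 without control replicate 1. Of 16 genes for origin licensing and firing, 5 fell (31.2%) and 1 rose (6.25%). Dbf4, the activating subunit of the Cdc7 kinase that fires origins, had 131, 132 and 126 CPM with butyrate, against 180, 181 and 207 CPM in control, with no overlap (log2 fold change -0.54, edgeR adjusted p = 0.00098). Kat7, a histone acetyltransferase that acts with Cdt1 at origins, fell by 0.52 on the log2 scale, from the same test (adjusted p = 0.000691). Dtl, which targets Cdt1 for destruction, rose by a log2 fold change of 0.28 (adjusted p = 0.0297 by edgeR).

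Of 17 further fork components, 5 fell (29.4%) and 1 rose (5.88%), against 22.5% and 23.5% of all genes tested. Timeless, of the fork protection complex, had 60.1, 54.0 and 42.9 CPM with butyrate, against 79.9, 81.6 and 77.7 CPM in control, with no overlap, and fell by 0.61 on the log2 scale (edgeR adjusted p = 0.00349). Rnaseh2b, a subunit of the ribonuclease that removes ribonucleotides from DNA, fell by 0.81, and the nuclease gene Dna2 rose by 0.32. Among 10 checkpoint genes 3 fell (30%) and 1 rose (10%). Atr, the kinase that acts through claspin, had 40.3, 38.0 and 32.5 CPM with butyrate, against 53.6, 50.1 and 56.9 CPM in control (log2 fold change -0.54, edgeR adjusted p = 0.00374), so it fell as Clspn did. Rad9a, of the checkpoint clamp, fell by 0.41, and the phosphatase gene Cdc25a rose by 0.23. Of 9 genes grouped as chromatin assembly 3 fell (33.3%) and 0 rose. The 2 with the smallest p were Esco2, the cohesin acetyltransferase, which fell by 0.63, and the histone chaperone gene Nasp, which fell by 0.36. The third was the DNA methyltransferase gene Dnmt1, which fell by 0.26. Of the 3, only Nasp encodes a histone chaperone.

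Nucleotide supply genes outside the 48 rose in 3 of 11 (27.3%) and fell in 2 (18.2%), near the 23.5% and 22.5% of all genes tested. Shmt1, which supplies one-carbon units for thymidylate synthesis, had 77.3, 104 and 101 CPM with butyrate, against 40.0, 49.3 and 40.4 CPM in control (log2 fold change 1.12, edgeR adjusted p = 0.000316). Every butyrate library was above every control library, opposite to Tyms. Dctpp1, a pyrophosphatase that cleans the nucleotide pool, rose by 0.92 (edgeR adjusted p = 0.000525), while the kinase genes Cmpk1 and Dck fell by 0.45 and 0.29. Leaving out single libraries ended several of the calls named outside the 48: Dtl (butyrate replicate 2 or 3, control 1 or 3), Dna2 (butyrate 2, control 1 or 3), Cmpk1 (butyrate 1 or 2, control 2 or 3), Dck (butyrate 2 or 3, control 2 or 3), Nasp (butyrate 2 or 3, control 1), Rad9a (butyrate 2 or 3, control 1 or 3) and Cdc25a (any butyrate, control 1 or 3). The edgeR adjusted p of these fits ran from 0.0515 for Rad9a to 0.168 for Cmpk1, with log2 fold changes of 0.23 to 0.32 for Dtl, 0.28 to 0.33 for Dna2, -0.49 to -0.29 for Cmpk1, -0.33 to -0.22 for Dck, -0.33 to -0.24 for Nasp, -0.38 to -0.35 for Rad9a and 0.20 to 0.25 for Cdc25a. Of these genes, Cmpk1, Dck and Nasp were also lost with upper quartile scaling, Dck and Cmpk1 with the filter of 5 CPM, Dck with total-count scaling, Dtl, Dna2 and Cdc25a with no filter, and Dna2, Dck and Cdc25a with DESeq2 (adjusted p 0.0511 to 0.127 over these fits).

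Among 15 genes that control entry into S phase, 6 fell, 3 rose and 6 were not called, with log2 fold changes from -1.61 to 1.56. The 40% called lower stood above the 22.5% of all genes tested, and the 20% called higher stood under the 23.5%. Cdkn1b, which encodes the cyclin-dependent kinase inhibitor p27, had 55.3, 48.5 and 41.4 CPM with butyrate, against 162, 136 and 146 CPM in control, and fell by 1.61 on the log2 scale (edgeR adjusted p = 4.26e-05, SE 0.119). Cdkn1a, which encodes the related inhibitor p21, had 332, 514 and 593 CPM with butyrate, against 117, 151 and 219 CPM in control, a log2 fold change of 1.56 (edgeR adjusted p = 0.00138, SE 0.258). These 2 inhibitors of one family thus went opposite ways, each with no overlap between groups. Ccna2, cyclin A of S phase and G2, had 321, 324 and 284 CPM with butyrate, against 619, 583 and 737 CPM in control (log2 fold change -1.06, edgeR adjusted p = 0.000148). E2f1, an activator of replication genes, had 88.2, 78.7 and 82.4 CPM with butyrate, against 51.1, 51.7 and 57.6 CPM in control (log2 fold change 0.63, edgeR adjusted p = 0.00062). E2f7 and E2f8, which encode repressors of E2F targets, fell by 0.96 and 0.49, and E2f2, an activator, by 0.50; these E2F genes were chosen after their values were seen.

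**Figure D3:**
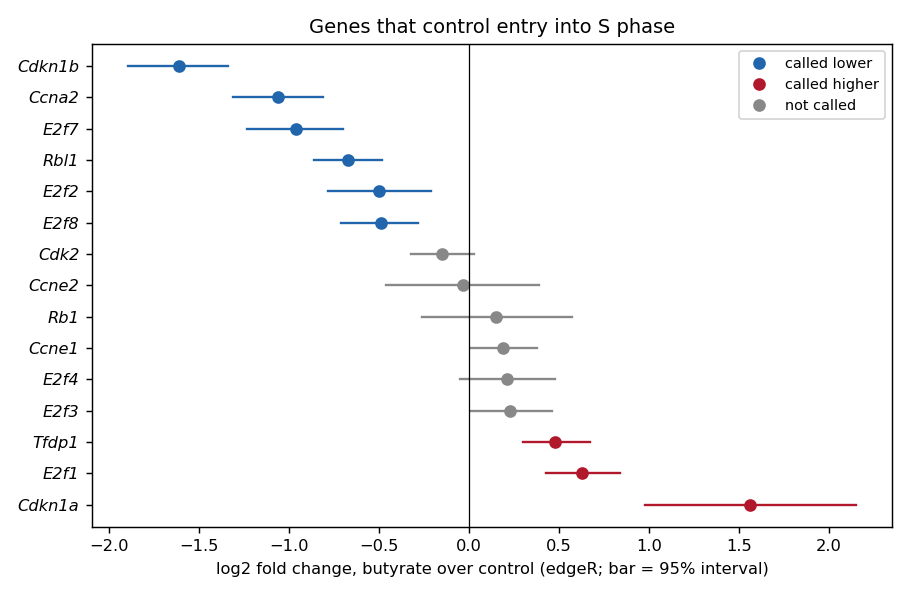
Log2 fold change, butyrate over control (x axis), with its 95% interval for the 15 genes that control entry into S phase (y axis, lowest fold at the top). Cdkn1b at -1.61 and Cdkn1a at 1.56 mark the ends of the range, and E2f1 lies at 0.63.

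Mitosis genes, the group most like the replication genes in its link to cell division, were lower with butyrate almost throughout. Of 41 mitosis genes 36 were called lower (87.8%, against 22.9% of replication genes and 22.5% of all genes tested), and their median log2 fold change was -0.82, against -0.04 for replication genes. Only Mybl2, a transcription factor gene, was called higher, and 4 were not called (Top2a, Cdk1, Birc5 and Espl1, named with Mybl2 after their values were seen). The Mybl2 call was lost, leaving a count of 0, without butyrate replicate 1 or 2 or control replicate 1 or 3. Cdc20, the activator of the anaphase-promoting complex, had 63.1, 67.6 and 59.7 CPM with butyrate, against 185, 190 and 213 CPM in control (log2 fold change -1.63, edgeR adjusted p = 2.52e-05). Nek2, a centrosome kinase gene, fell by 0.88 (edgeR adjusted p = 6.8e-05). Summed CPM of the 41 mitosis genes was 9296, 8867 and 6960 with butyrate, against 12829, 12491 and 12878 in control. Replication genes summed to 0.825, 0.838 and 0.983 times the mitosis sum in the butyrate libraries, against 0.539, 0.597 and 0.570 times in the control libraries, and these ratios did not overlap. The difference between the lists was described and not tested as a set.

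**Figure D4:**
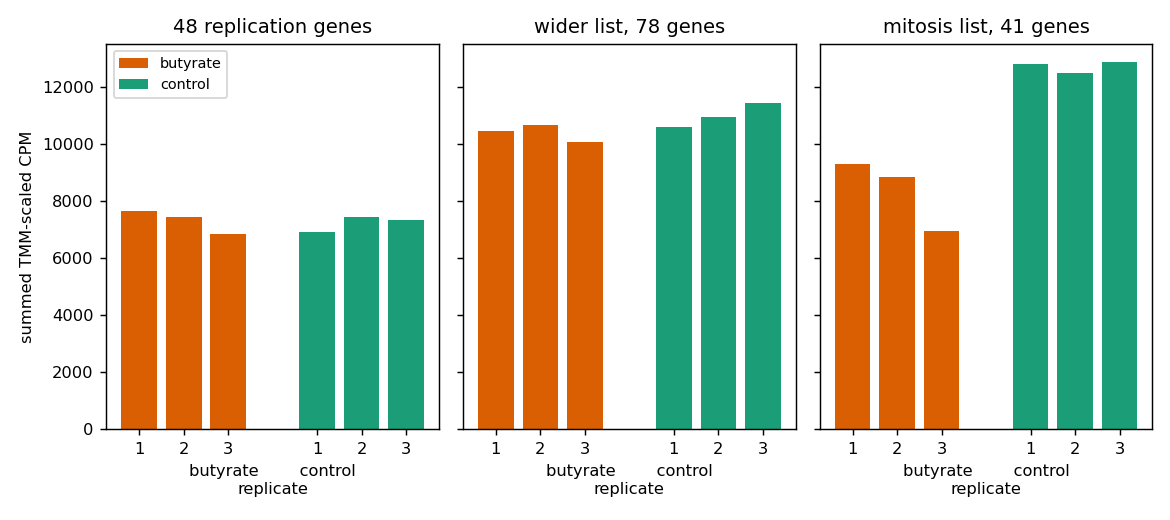
Summed CPM (y axis, from 0) of the 48 replication genes, the 78 further replication genes and the 41 mitosis genes in each library (x axis, butyrate replicates left of control replicates). Sums of the 48 genes overlap between groups at 6844 to 7671 with butyrate and 6910 to 7460 in control, while those of the mitosis genes do not.

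**Figure D5:**
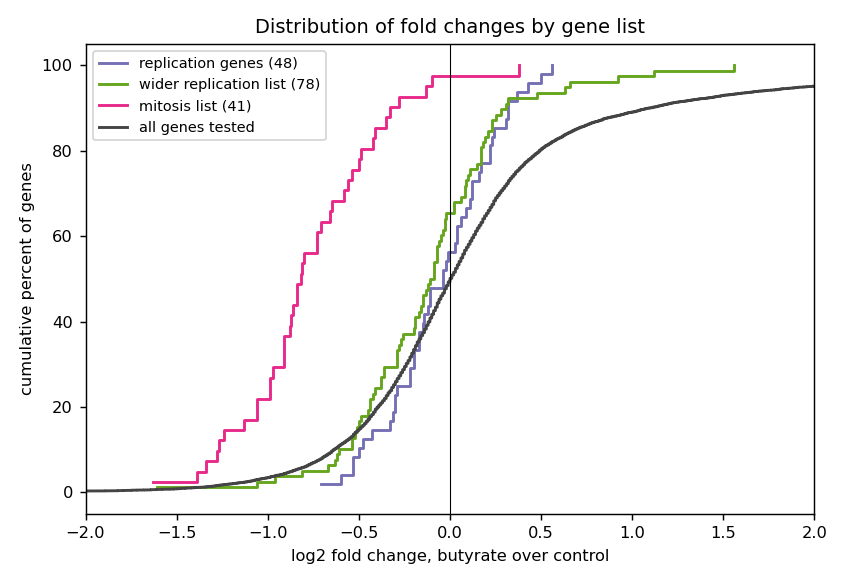
Cumulative percent of genes (y axis) by log2 fold change, butyrate over control (x axis), for the 48 replication genes, the 78 further replication genes, the 41 mitosis genes and all genes tested. The replication curve is steep around 0 with a median of -0.04, and the mitosis curve is shifted to a median of -0.82.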

How the data were processed

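RNA was sequenced from 3 butyrate and 3 control libraries (TruSeq RNA kit, 1 µg of total RNA, per the labels). The authors deposited raw read counts per gene, 1 column per library. The submitters' processing notes name the tools featureCounts, Subread, TopHat, Picard, edgeR and CASAVA, and mm10 as build; their roles and settings are not stated there. Of 27179 gene numbers, 25275 were named from RefSeq (GRCm38.p6, the assembly of mm10). Library totals were 5383380 to 6244350 counts. A floor of 3 counts stood at 0.487 to 0.556 CPM, for counting error only.

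The contrast of butyrate over control used the quasi-likelihood F test of edgeR (4.0.16, with R 4.3.3 and limma 3.58.1) with TMM scaling, the filterByExpr filter and Benjamini-Hochberg adjustment over 11740 genes. A gene is called when its adjusted p is under 0.05. The standard error is the absolute log2 fold change over the square root of F, and the 95% intervals use the moderated degrees of freedom. The fit was tested on simulated data whose changes were larger than those of the replication genes, so changes of their size were not covered. Levels per kilobase use the union of GENCODE M21 basic exons. Libraries of one group differed beyond counting noise (chi-square over degrees of freedom 5.43 to 10.6), so none was treated as a library deposited again. Separate mice or cultures are not named in the labels, so p-values reflect only the spread between libraries, and this may be technical.

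Replicate numbers are shared between groups. After removal of group means, same-numbered libraries correlated at 0.36, 0.20 and 0.35 over genes, and other pairs at -0.30 to -0.07. The numbers may thus pair the samples, from the data and not from the labels. The main fit ignores this pairing, and calls, SE, intervals and p come from it unless another fit is named. The blocked fit is an alternative. Over all genes it called 3095 lower and 3220 higher, against 2637 and 2756 in the main fit.

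Genes and lists were chosen with earlier results of these data known. Values per library are given, in each role, for up to 3 called genes per direction with the smallest p and the most abundant gene not called, and the text names up to 2 called genes per direction and role of the further replication list and 2 mitosis genes. Values of Gmnn and Pole2 per library, and all other genes named, were added after their values were seen. The alternatives tried were scaling by upper quartile, RLE or total counts, no filter, a stricter filter (5 CPM in 3 libraries), each library left out, the replicate block, robust edgeR, limma voom and DESeq2 (1.42.0).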

Additional observations from a re-analysis of the deposited data

How the results depend on the processing

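Over 15 alternatives, the 48 log2 fold changes gave 720 values, of which 633 kept their direction and side of the threshold. Of the rest, 51 lost and 14 gained a call and 22 turned sign, with 0 turns among called genes. The replicate block, which pairs same-numbered libraries, gave 11 lower and 7 higher replication genes (11 and 6 without it), adding Orc6, and changed no other call among the 48. Upper quartile scaling gave 4 lower and 10 higher, raised the median of all genes by 0.08 and that of the 48 to 0.04. The median of the 48 was -0.03 with total counts, -0.08 with no filter and -0.01 with the stricter filter. Leaving out 1 library gave 5 to 9 lower genes, a median of -0.09 to 0.02, 5 to 9 higher genes of the further list and 0 to 1 higher mitosis genes. All sign turns of single genes were of genes not called. With upper quartile scaling, Orc2 stood at 0.06, Mcm10 at 0.04, Rrm1 at 0.04 and Slbp at 0.07. With the stricter filter Orc2 and Slbp were at 0.01, and with no filter Pcna was at -0.01. Without single libraries the ranges were -0.13 to 0.10 for Orc2, -0.34 to 0.07 for Mcm5, -0.03 to 0.17 for Prim2, -0.02 to 0.09 for Pcna, -0.02 to 0.11 for Rfc1, -0.41 to 0.08 for Rfc4, -0.11 to 0.06 for Rrm1, -0.09 to 0.16 for Chaf1b and -0.10 to 0.12 for Slbp. The causes were not tested. With 3 libraries a group, exact tests of single values cannot go below p = 0.1. Pole2, the least abundant gene, had 43 to 104 counts a library.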
